A study of Mus musculus with 22 samples.

Results

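The cytosolic ribosomal protein genes were taken as every gene whose mouse symbol starts with Rpl or Rps followed by a digit, by p and a digit, or by a, leaving out the Rps6k kinases and symbols marked as pseudogenes. This rule found 84 of the 11208 genes in the table of normalized counts. Of these, 31 encode canonical proteins of the small subunit and 45 canonical proteins of the large subunit. Another 7 are paralogs or copies (Rpl22l1, Rpl7l1, Rpl39l, Rps27l, Rpl37rt, Rps27rt and Rpl6l), of which Rpl37rt and Rpl6l are annotated as processed pseudogenes. The last, Rps19bp1, encodes a protein that binds RPS19 and is not a ribosomal protein.

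RNA was measured in NIH/3T3 cells, an established mouse embryonic fibroblast line. The E2F1 line carries a doxycycline-inducible E2F1, a transcription factor of the cell cycle, and the EV line carries the empty vector. Both lines were starved for 48 h in 0.25% serum, and each was sampled at 0 h and at 2, 6 and 12 h of 500 ng/ml doxycycline. The EV line was also sampled at 2, 6 and 12 h after addition of 10% serum, and its serum and doxycycline series share the same 0 h libraries. Each of the 11 groups held 2 libraries of polyadenylated RNA, 22 in all. The labels do not say whether the lines are single clones or whether replicates came from separate cultures, so p-values measure only the spread between these libraries.

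Each cytosolic ribosome holds 1 copy of nearly every ribosomal protein, so these genes are made in matched amounts and their mRNAs are among the most abundant of a growing cell. Their mRNAs typically begin with a C followed by a stretch of pyrimidines, the terminal oligopyrimidine (TOP) tract. Through this tract mTORC1 and its partner LARP1 control how well the mRNAs are translated and how long they are kept. In fibroblasts, starvation withdraws these mRNAs from polysomes and serum returns them, a step that mRNA levels do not show.

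Totals of normalized counts ran from 34014608 to 46057140 per library, with both 2 h serum libraries highest. All 12 listed fibroblast markers were in the table, with summed levels of 724892 to 1497160 per library, while the listed epithelial (0 of 4), blood (0 of 3) and endothelial (0 of 3) markers were not among its genes. The lowest mean level of any gene in the table was 99.6, so the absent markers have no value to read, which is not a level of 0. In the E2F1 line, E2f1 itself had 1703 and 1637 normalized counts before doxycycline, then 1535 and 1755 at 2 h, 3806 and 3602 at 6 h, and 2683 and 2845 at 12 h of doxycycline. It was thus higher at 6 and 12 h and overlapped 0 h at 2 h, and whether transcripts of the construct are counted under this gene is not given in the sources used here. Ddx3y, which lies on the Y chromosome, was at 316 to 580 in the E2F1 line and at 9 and 4 in the EV line at 0 h, but at 103 and 71 in EV doxycycline at 2 h and at 132 and 170 in serum at 2 h. These 4 libraries therefore differ from the EV 0 h libraries in a gene that marks the other line, and its part in the results at 2 h was not tested.

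The start of the transcript is the feature for which this family is best known, so the first bases are shown for some members that fell and some that rose, chosen after their values were seen and with and without such a start. Windows around the annotated start were available from RefSeq (build GRCm38.p6) for 63 of the 84 genes. Each stretch runs 5′ to 3′ on the gene's strand, with 12 bases before the annotated start and 18 from it, and capitals mark a C at the start with the unbroken pyrimidines after it. Of the members shown here, Rps6, Rps18, Rpl38 and Rps27 fell in at least 1 condition. Rps10 fell with E2F1 and rose with serum, each against 0 h of the same line.
Rps6: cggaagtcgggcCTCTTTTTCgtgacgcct
Rps18: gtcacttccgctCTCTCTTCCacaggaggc
Rpl38: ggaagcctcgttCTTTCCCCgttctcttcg
Rps27: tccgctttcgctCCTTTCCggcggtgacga
Rps10: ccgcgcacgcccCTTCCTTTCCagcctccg
The stretches lie at chr4:86857350-86857379 (minus strand), chr17:33955648-33955677 (minus), chr11:114668568-114668597 (plus), chr3:90213631-90213660 (minus) and chr17:27635227-27635256 (minus). Rpl13a, Rpl10 and Rps4x also fell in at least 1 condition, and they have no C followed by at least 4 pyrimidines at the annotated start, so they are shown without capitals.
Rpl13a: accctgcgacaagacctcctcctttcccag
Rpl10: gttacagtggaagataggccgcctatataa
Rps4x: aggctgggcggagcaacccaggctccagcg
These lie at chr7:45128728-45128757 (minus), chrX:74270804-74270833 (plus) and chrX:102189374-102189403 (minus). The 4 paralogs below and Rps19bp1 rose in at least 1 condition where most of the family did not, and have no such start either.
Rpl7l1: aggctgcgcaagcgcagtagctgaagcacc
Rpl39l: ccaggcctttccggatttccggtggtcgcc
Rpl22l1: cggcgcaagcccgttctcttcccacggctg
Rps27l: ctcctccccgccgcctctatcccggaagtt
Rps19bp1: ggcggaagtagctcgccgcgtgtgggcggg
These lie at chr17:46782639-46782668 (minus), chr16:10170216-10170245 (plus), chr3:28805496-28805525 (plus), chr9:66946074-66946103 (plus, the first of 2 annotated starts) and chr15:80264289-80264318 (minus).

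A C at the annotated start followed by at least 4 pyrimidines was found in 14 of the 63 members (22.2%) and in 3.01% of 27025 genes with a window. These 27025 genes include genes outside the table of normalized counts. A run of 8 or more pyrimidines within 30 bases of the start on either side was found in 35 of 63 members (55.6%) and in 25.8% of the 27025. Elements were searched for on either strand of the window of 250 bases before to 50 after the start. A match to TTTCCCGC, TTTGGCGC, TTTCGCGC or TTTGCCGC, forms of the E2F element, was found in 2 members, Rps3a1 and Rpsa (3.17%), and in 2.60% of the 27025. CCGGAAGT, an ETS-type element, was in 12 members (19.0%, against 4.31%), AAGATGGC, a YY1-type element, in 6 (9.52%, against 3.19%), and TATAAA in 7 (11.1%, against 15.7%). None of these searches is a measure of binding.

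Levels differed widely between members although their proteins are needed in equal amounts. The median canonical member had a mean of 27697 normalized counts over the 22 libraries, against 1381 for the median gene of the table. Rplp0, the core protein of the ribosomal stalk, was highest at 153234, followed by Rps6 (83761), whose protein is the phosphorylation target of S6 kinase, and Rpsa (80842), which is also known as the laminin receptor. Rplp0 alone made up 5.76% to 6.57% of the family's counts per library. Per kilobase of the principal transcript, the highest member was Rpl41 at 165558, the shortest of all with 25 residues, then Rplp1 (151315), Rplp0 (112838) and Rps6 (95400), with a median of 36230 per kilobase over canonical genes. The lowest were Rps10 (876 per kilobase) and Rpl29 (951).

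At the other end, 7 canonical genes had mean levels under 5000: Rps10 (436), Rpl29 (554), Rpl34 (982), Rpl35a (2058), Rpl13a (2339), Rpl30 (2744) and Rps18 (3244). Near-identical copies are common in this family: 60 of the 84 members have named pseudogenes in the annotation, 292 in all, and 27 overlap another gene. Whether reads that match several places, or either strand, were counted is not given in the sources used here. Levels of members with copies are therefore uncertain, and reads of Rps27rt, Rpl37rt and Rpl6l cannot be told apart from those of Rps27, Rpl37 and Rpl6 with certainty. Rps10 (chr17:27630418-27636669, minus strand) has 4 named pseudogenes and also overlaps the annotated genes Gm15420 and RPS10-NUDT3.

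The family as a whole took up 4.93% to 8.84% of each library's normalized counts. In the EV line at 0 h it took 7.93% and 8.84%, the latter being the highest of all libraries, and in the E2F1 line before doxycycline it took 7.10% and 7.27%. With E2F1 induction the share was 6.43% and 6.42% at 2 h, 5.73% and 6.30% at 6 h, and 4.93% and 5.87% at 12 h. All 6 of these libraries lay below both E2F1 0 h libraries, and the mean at 12 h was 0.752 of that at 0 h. With serum the share was 6.19% and 6.27% at 2 h, 6.16% and 6.34% at 6 h, and 5.80% and 6.43% at 12 h, all below both EV 0 h libraries, and the mean at 12 h was 0.729 of 0 h. EV cells given doxycycline stayed higher, at 7.17% and 7.36% (2 h), 8.02% and 8.13% (6 h), and 7.30% and 8.48% (12 h), and at 6 and 12 h they overlapped 0 h. At 2 h they too lay below both EV 0 h libraries, with a mean of 0.867 of 0 h, against 0.895 in the E2F1 line. The sum of the family's normalized counts moved less at 2 h of serum, where library totals were highest. It was 0.962 of 0 h and overlapped it, and lay above both EV doxycycline libraries of 2 h. At 6 and 12 h of serum the sum was 0.864 and 0.771 of 0 h, and with E2F1 at 2, 6 and 12 h 0.896, 0.908 and 0.784. The share and the sum were not tested, and their values are a description. In bulk RNA, fewer cells with these mRNAs and less of them per cell cannot be told apart.

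**Figure D1:**
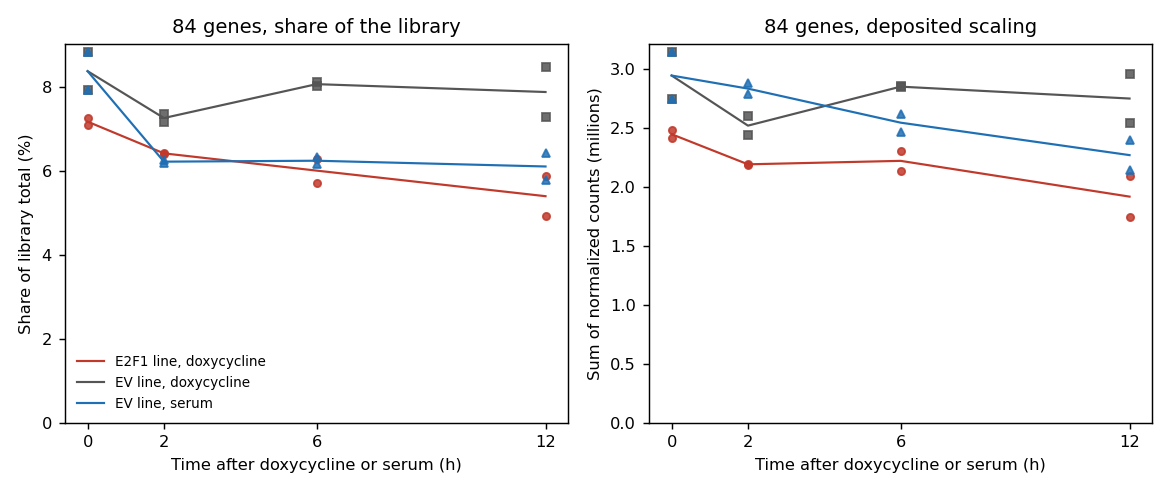
Share of each library's normalized counts (percent, y axis from 0) taken by the 84 genes against time (h); points are libraries and lines join group means. The E2F1 and serum libraries lie below their own 0 h libraries at every time, from 4.93% to 6.43%, while EV doxycycline libraries lie between 7.17% and 8.48%.

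The ratio of large-subunit to small-subunit counts stayed between 1.35 and 1.43 over all 22 libraries, and was 1.35 in both E2F1 12 h libraries and 1.43 in both serum 12 h libraries. Relative to the median canonical member of the same library, the group means of a canonical gene spanned a median range of 0.33 on the log2 scale over the 11 groups. The steadiest was Rpl6 (0.12), followed by Rpl5 and Rpl26 (0.12 each). The widest ranges were those of Rpl34 (1.44), Rps10 (1.36), Rpl29 (0.94) and Rps2 (0.83) among canonical genes. Outside them, Rps19bp1 (1.59), Rps27l (1.40), Rpl7l1 (1.40) and Rpl39l (1.10) varied most.

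**Figure D2:**
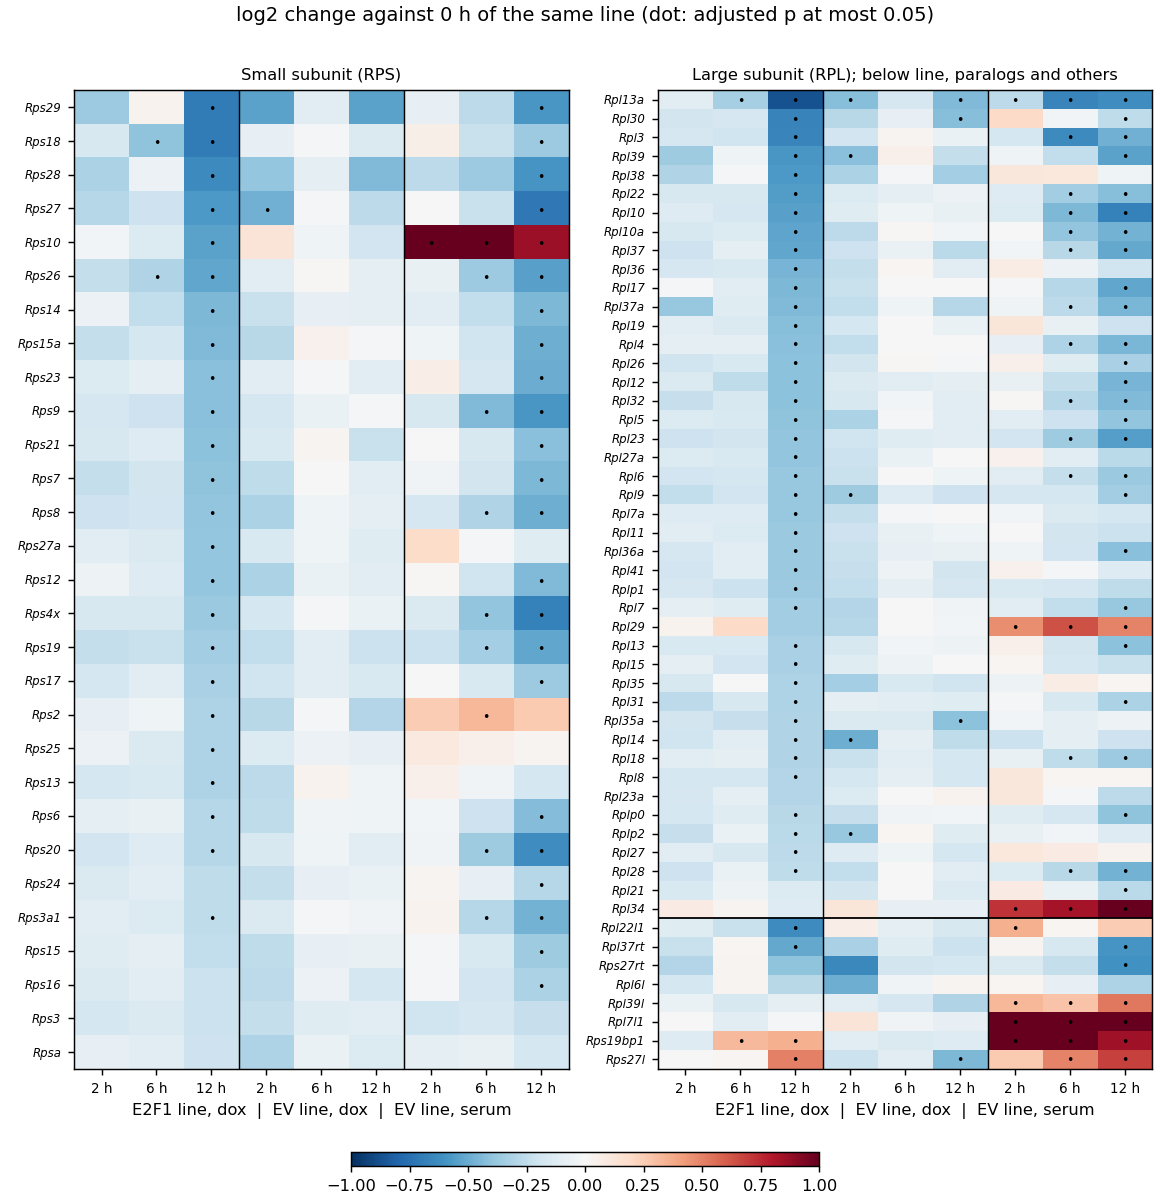
Log2 change of 81 of the genes (1 per line, colour scale in log2 units, small subunit left, large subunit and other members right) in each comparison against 0 h of the same line; dots mark an adjusted p of at most 0.05. Most cells of E2F1 12 h and serum 12 h are on the falling side, and the rising cells of the serum columns belong to a small set led by Rps19bp1, Rpl7l1, Rps10 and Rpl34.

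E2F1 induction was followed by a broad fall of the family by 12 h. At 12 h, 68 of 84 members were lower and 2 were higher than at 0 h in the E2F1 line (limma on log2(value + 1), Benjamini-Hochberg adjusted p at most 0.05). Of all 11208 genes, 61.5% were called in this comparison, 31.8% of all genes as higher and 29.7% as lower. The median member change was −0.38 on the log2 scale, against −0.02 over all genes. All calls among canonical genes were falls: 25 of 31 of the small subunit and 41 of 45 of the large subunit. In 77 members both 12 h libraries lay below both 0 h libraries, which held for 41.1% of all genes.

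Rpl13a, a large-subunit protein also known as part of the GAIT complex that silences inflammatory mRNAs (chr7:45125558-45128761, minus strand), fell most. It had 2804 and 2321 normalized counts at 0 h, 2268 and 1819 at 6 h, and 1349 and 1435 at 12 h. The 12 h libraries lay far below the rest, and the change was −0.87 ± 0.11 on the log2 scale (SE), with an adjusted p of 3.05e-06. Rpl13a was also lower in EV cells at 12 h of doxycycline, with 2137 and 2539 against 3121 and 3205 at 0 h.

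Rps29, a zinc-binding protein of the small subunit (chr12:69157722-69159186, minus strand), went from 13061 and 9990 to 6034 and 8198, a change of −0.70 ± 0.17 (adjusted p = 0.00146). The groups did not overlap, but the replicates of each were far apart. Rps18 (chr17:33951999-33956001, minus strand), a protein of the head of the small subunit, had 3409 and 3534 at 0 h, 2681 and 2583 at 6 h, and 1821 and 2513 at 12 h. It was below 0 h at both later times given, with changes of −0.40 (6 h, adjusted p = 0.0112) and −0.70 (12 h, adjusted p = 8.13e-05). Rpl30 (chr15:34440505-34443640, minus strand), which binds its own transcript in yeast, fell from 3092 and 2733 to 1851 and 1801, a change of −0.67 ± 0.09 (adjusted p = 2.78e-06). Rpl30 was also lower in EV cells at 12 h of doxycycline, and the difference between the changes of both lines was −0.24 ± 0.12, not called.

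Rpl3 (chr15:80077791-80091868, minus strand), which lies near the peptidyl transferase centre, had 35462 and 38110 normalized counts at 0 h and 21966 and 24578 at 12 h, a change of −0.66 ± 0.11 (adjusted p = 4.14e-05). In EV cells the same gene had 37845 and 45311 at 0 h and 36374 and 42987 at 12 h of doxycycline, so those groups overlapped. The members with the highest levels differed in their changes. Rpl10 (−0.54) and Rpl4 (−0.41), both among the more abundant, changed by more than the family median. Rplp0 (chr5:115559467-115563727, plus strand) went from 145917 and 152356 to 114578 and 131818, a change of −0.28 ± 0.12 (adjusted p = 0.0442). Rps6 (chr4:86854660-86857412, minus strand) went from 78463 and 82831 to 61806 and 70741, a change of −0.29 ± 0.11 (adjusted p = 0.0354). Both were close to the threshold, and for Rplp0 the direction was turned by quantile normalization (0.10).

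Members not called at 12 h included Rpsa (−0.21), Rps3 (−0.21), Rpl21 (−0.14) and Rpl34 (−0.13). Rpsa went from 68306 and 73163 to 56324 and 66613, so its groups did not overlap either. The 5S RNP pair, Rpl5 and Rpl11, whose proteins bind MDM2 when ribosome assembly is disturbed, both fell, with changes of −0.40 and −0.37 (adjusted p = 0.00837 and 0.00955). All 3 stalk genes, Rplp0, Rplp1 and Rplp2, were lower.

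Much of this count rests on single libraries. E2F1 12 h replicate 1 had the smallest family share of all, and without it 23 members were called, 21 of them lower, with a median of −0.24. Without E2F1 0 h replicate 2, 45 members were called, all lower. In each case the lone remaining library is assumed to vary like the other groups.

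**Figure D3:**
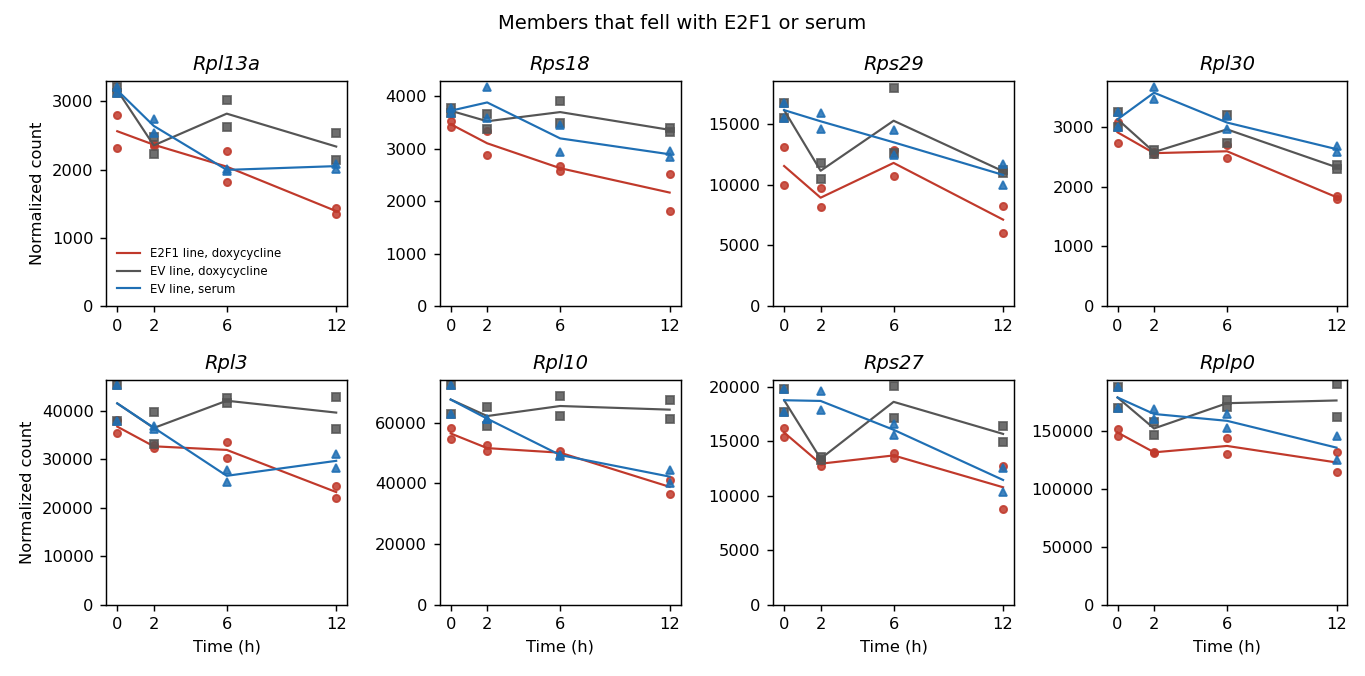
Normalized counts (y axis from 0) of 8 members that fell with E2F1 or serum, against time (h); points are libraries, lines are group means, red is E2F1 doxycycline, grey EV doxycycline and blue serum. Rpl13a reached 1349 and 1435 at 12 h of E2F1, and Rps27 reached 10361 and 12555 at 12 h of serum.

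Earlier times showed little in the same line. At 6 h, 1 member was higher and 3 were lower (51.7% of all genes were called, 28.8% as higher and 22.9% as lower), with a median of −0.14 against −0.03 over all genes. The 3 were Rps18, Rpl13a (−0.33) and Rps26 (−0.30), and the higher one was Rps19bp1 (0.32). Under scaling to equal library totals 42 members were lower and none higher, and all genes shifted to a median of −0.15, against −0.25 for the members. Quantile normalization gave 22 lower. Of all 11208 genes, 2683 were higher and 3781 lower with equal totals, and 2657 and 3820 with quantile normalization. Without E2F1 6 h replicate 1 or E2F1 0 h replicate 2, 2 members were called. At 2 h no member was called (1.86% of all genes were), 16 had an unadjusted p under 0.05, the smallest adjusted p was 0.0655, and 81 of 84 changes were negative with a median of −0.16.

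Doxycycline in the EV line was the control for the agent and the time since 0 h together. No untreated libraries were taken at 2, 6 or 12 h, so these cannot be told apart. At 12 h, 4 members were lower and none higher (4.17% of all genes were called, 3.42% as lower): Rps27l (−0.45), Rpl13a (−0.44), Rpl30 (−0.43) and Rpl35a (−0.41), with a family median of −0.11. No call was left without EV 0 h replicate 2, or without EV 12 h replicate 1. At 6 h none was called and none had an unadjusted p under 0.05 (0.134% of all genes were called; median −0.05). At 2 h, 7 were lower (7.35% of all genes were called, 2.43% as lower), with a median of −0.22, among them Rpl14 (−0.49), Rps27 (−0.48), Rpl13a (−0.43), Rpl39 (−0.42), Rplp2 (−0.38) and Rpl9 (−0.35). These 2 h libraries are those with raised Ddx3y. The 2 h calls also rest on single libraries, since 0 were left without EV 0 h replicate 2 or EV 2 h replicate 1, and 1 without EV 2 h replicate 2.

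The difference between the doxycycline changes of both lines was tested directly. At 12 h it was called for 18 members, 16 lower and 2 higher in the E2F1 line (50.5% of all genes were called, 27.3% as higher and 23.3% as lower), with a median of −0.26 against −0.02 over all genes. The largest were Rpl3 (−0.60 ± 0.15, adjusted p = 0.00351), Rps18 (−0.55, adjusted p = 0.0131), Rpl22 (−0.50, adjusted p = 0.00641) and Rpl10a (−0.50, adjusted p = 0.0225). Rpl22, a large-subunit protein whose loss in mice is known to affect mainly T cells, had 16466 and 16863 normalized counts at E2F1 0 h and 9994 and 12792 at 12 h, while in EV cells it had 17175 and 18727 at 0 h and 16419 and 18038 at 12 h. The count of 18 was not steady. It was 4 without E2F1 12 h replicate 1, 34 without replicate 2, 11 and 8 without E2F1 0 h replicates 1 and 2, 8 without EV 0 h replicate 1, 28 without EV 12 h replicate 1 and 6 without EV 12 h replicate 2. Scaling to equal totals gave 1 higher and 30 lower, as did quantile normalization. Of all 11208 genes, 2799 were higher and 2993 lower with equal totals, and 2659 and 3457 with quantile normalization. At 6 h the difference was called for Rps19bp1 alone (34.5% of all genes were called, 22.2% as higher and 12.3% as lower), and for no member without any 1 of E2F1 6 h replicate 1, E2F1 0 h replicate 2, EV 0 h replicate 1 or EV 6 h replicate 1. At 2 h it was called for none, with none at an unadjusted p under 0.05 (0.143% of all genes were called).

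Rps27l encodes a paralog of the small-subunit protein RPS27 and is known as a p53 target that affects MDM2. It rose with E2F1 where most of the family fell. It had 3011 and 2420 normalized counts at E2F1 0 h, 2880 and 2599 at 6 h, and 3713 and 3936 at 12 h, and in EV cells 2559 and 3079 at 0 h and 1802 and 2350 at 12 h. Both E2F1 12 h libraries were above every other doxycycline library of either line. The change in the E2F1 line was 0.50 ± 0.12 (adjusted p = 0.00191), and its difference from the EV line was 0.95 ± 0.18 (adjusted p = 0.000212). Its parent Rps27 had 15368 and 16258 at E2F1 0 h and 8822 and 12755 at 12 h.

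Rps19bp1, whose protein is also called AROS and binds both RPS19 and the deacetylase SIRT1, was the other riser. It had 867 and 708 normalized counts at E2F1 0 h, 1074 and 892 at 6 h, and 974 and 1027 at 12 h, a change of 0.35 ± 0.12 at 12 h (adjusted p = 0.0148). Rpl22l1, the paralog of Rpl22, fell from 1776 and 1542 to 984 and 1159 (−0.63 ± 0.11, adjusted p = 6.82e-05). Rpl7l1 (4108 and 3425 at 0 h, 3613 and 3787 at 12 h) and Rpl39l (3393 and 2970, then 2758 and 3217) had overlapping groups. Rpl37rt fell by 0.51 on the log2 scale (adjusted p = 0.00968), while Rps27rt (−0.40) and Rpl6l (−0.28) were not called.

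Serum addition to the starved EV line gave the comparison with a full growth stimulus. At 2 h, 7 members were higher and 2 lower (70.9% of all genes were called, 37.5% as higher and 33.5% as lower), with a median of −0.02 against 0.03 over all genes. At 6 h, 8 were higher and 23 lower (67.5% of all genes were called, 36.5% as higher and 31% as lower), with a median of −0.18. At 12 h, 7 were higher and 53 lower (65.7% of all genes were called, 36% as higher and 29.7% as lower), with a median of −0.37 against 0.05. Over the 3 times, 6 members were higher at each, 2, among them Rpl13a, were lower at each, and 22 were called at none. Of the lower calls at 12 h, 24 were of the small and 27 of the large subunit.

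The counts at 2 and 6 h turn on how libraries are scaled. With equal library totals, 4 members were higher and 70 lower at 2 h, and the 6 h split was 5 against 66. Quantile normalization gave 5 and 71 at 2 h, and 5 and 67 at 6 h. At 12 h the splits were 7 and 64 with equal totals and 7 and 63 with quantile normalization. With equal totals, all genes shifted to a median of −0.34 at 2 h and the members to −0.40, a difference of similar size to that without rescaling. With quantile normalization all genes were at −0.05 and the members at −0.49. The number of members called lower at 2 h thus differs with the scaling, while the members' median was negative in each of these fits. Without EV 0 h replicate 2, the library with the highest family share, 16 members were called at 6 h (7 higher, 9 lower).

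Rps27 (chr3:90212522-90213651, minus strand), a zinc-binding protein of the small subunit, was among the members that fell most. It had 17739 and 19818 at 0 h, 19592 and 17836 at 2 h, and 10361 and 12555 at 12 h (−0.72 ± 0.13, adjusted p = 0.000103). It overlapped 0 h at 2 h and fell later.

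Rps4x, the X-linked form of a small-subunit protein, fell from 64588 and 78576 to 41923 and 47226 at 12 h, and Rpl10, which is among the last proteins to join the large subunit, from 62912 and 72437 to 40092 and 44439 (both −0.68, adjusted p = 1.3e-05 and 6.75e-06). Rpl3 was lowest at 6 h, with 25354 and 27900 against 37845 and 45311 at 0 h and 28328 and 31116 at 12 h. Rpl13a had 1979 and 2013 at 6 h and 2014 and 2089 at 12 h, against 3121 and 3205 at 0 h. The 6 h changes were −0.64 for Rpl3 and −0.66 for Rpl13a (adjusted p = 4.73e-05 and 5.08e-05). Rplp0 and Rps6 fell at 12 h, with changes of −0.40 and −0.44 (adjusted p = 0.0054 and 0.00248).

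The members higher with serum were few: Rps10, Rpl34, Rpl29, Rpl7l1, Rpl39l and Rps19bp1 at all 3 times, with Rpl22l1 added at 2 h, Rps27l at 6 and 12 h and Rps2 at 6 h. Rps19bp1 led at 2 h, with 2224 and 2165 normalized counts against 884 and 743 at 0 h, which is 2.71-fold (1.44 ± 0.12, adjusted p = 3.74e-09). It then had 1732 and 1708 at 6 h and 1445 and 1476 at 12 h, lower at each later time but above every library without serum. Rpl7l1, a paralog of Rpl7 known from pre-ribosomes, had 3541 and 3570 at 0 h, 8404 and 8561 at 2 h, 7976 and 7891 at 6 h, and 7327 and 7262 at 12 h. It was 2.39-fold higher at 2 h (adjusted p = 1.49e-10) and 2.05-fold at 12 h (adjusted p = 4.88e-09).

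Rps10, a small-subunit protein that is ubiquitinated on collided ribosomes, had 449 and 285 at 0 h, 752 and 765 at 2 h, 749 and 757 at 6 h, and 647 and 646 at 12 h. It was 2.12-fold higher at 2 h (adjusted p = 8.48e-05), and all 6 serum libraries were above every doxycycline and 0 h library of the EV line. Rpl34 had 848 and 771 at 0 h, 1226 and 1451 at 2 h, 1523 and 1365 at 6 h, and 1615 and 1684 at 12 h, its highest level (1.03 ± 0.12, adjusted p = 4.67e-07). Rpl29 had 432 and 671 at 0 h and 748 and 736 at 2 h, with the 0 h libraries far apart, and the adjusted p at 2 h was 0.0186.

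Rps27l rose with serum later, to 4042 and 3894 at 6 h and 4435 and 4596 at 12 h from 2559 and 3079 (0.69 ± 0.12 at 12 h, adjusted p = 0.000101). Rpl39l had 3571 and 3483 at 0 h, 4386 and 4470 at 2 h, and 4987 and 5173 at 12 h (0.53, adjusted p = 0.000311). With equal totals, Rps19bp1 (1.06), Rpl7l1 (0.88), Rps10 (0.71) and Rpl34 (0.35) stayed higher at 2 h, while Rpl39l and Rpl22l1 came to −0.0466 and −0.0198. The 7 canonical genes with mean levels under 5000 had a median of −0.05 at 12 h, 3 higher and 3 lower. The 69 others had a median of −0.41, none higher and 48 lower.

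**Figure D4:**
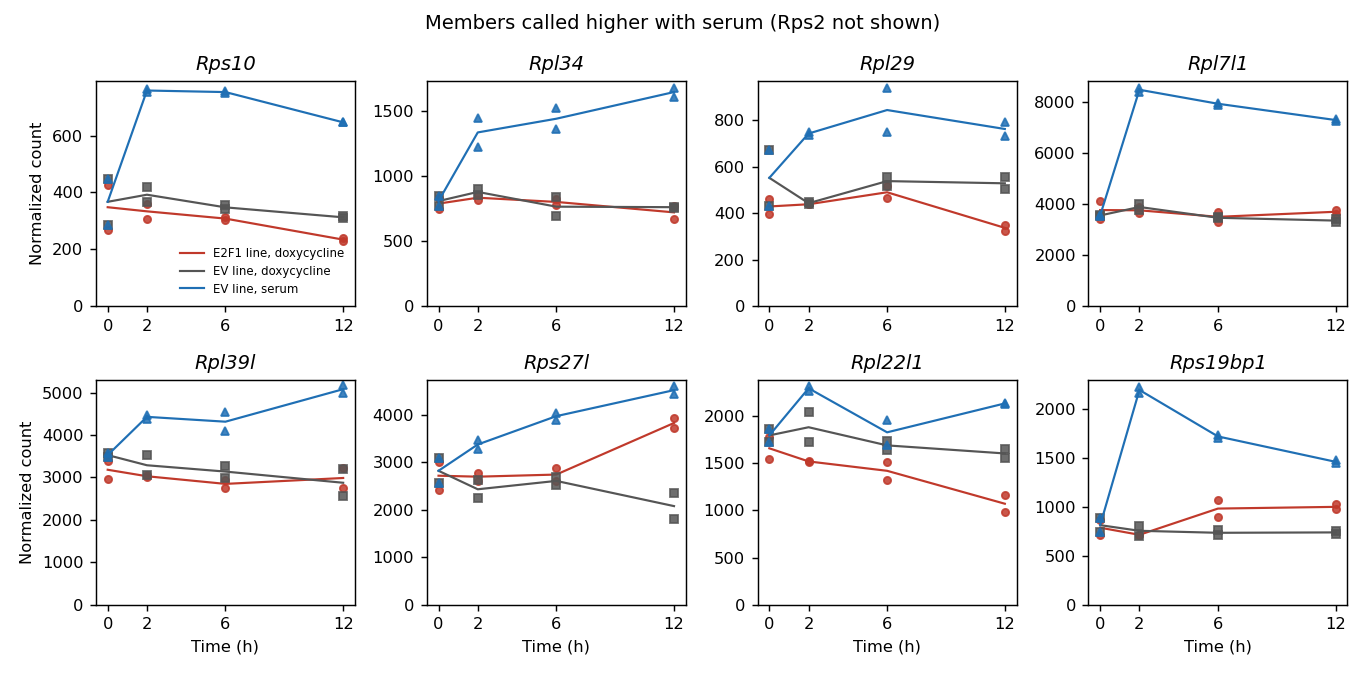
Normalized counts (y axis from 0) of 8 members that rose with serum, against time (h); points are libraries, lines are group means, blue is serum, grey EV doxycycline and red E2F1 doxycycline. Rps10, Rpl7l1 and Rps19bp1 are high from 2 h of serum on, and Rps27l is also high at 12 h of E2F1, at 3713 and 3936.

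Serum and doxycycline were also compared within the EV line at matched times, which leaves the 0 h libraries out. At 12 h, 10 members were higher with serum and 36 lower (70.4% of all genes were called, 37.9% as higher and 32.5% as lower), with a median of −0.22. Without serum 12 h replicate 1, 11 were higher and 17 lower. At 6 h, 8 were higher and 19 lower (65.8% of all genes were called, 35.8% as higher and 30% as lower), and 16 and 17 calls in all were left without EV 6 h replicate 1 and serum 6 h replicate 1. At 2 h, 26 were higher and none lower (67.1% of all genes were called, 35% as higher and 32.1% as lower), and 14 or 15 were left without EV 2 h replicate 1 or either serum library. That direction at 2 h did not hold with equal totals (3 higher, 26 lower) or quantile normalization (5 higher, 56 lower), and both 2 h groups have raised Ddx3y. Of all 11208 genes, 2114 were higher and 6050 lower at 2 h with equal totals, and 3308 and 3809 with quantile normalization.

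Most of the family was lower by 12 h both with E2F1 and with serum, in different lines with different 0 h libraries. Of 68 members lower with E2F1 and 53 lower with serum, 47 were shared, which is 69.1% of the first list and 88.7% of the second. Lists of these sizes among 84 genes would share 42.9 by their sizes alone, so 47 is close to what the counts fix. Over all genes, 1711 were lower in both, which is 51.4% of either list. Across the 76 canonical members, Pearson's r between both 12 h changes was 0.31 and Spearman's rho 0.42, and across all 11208 genes they were 0.45 and 0.46. Genes of a library share its depth and scaling, so these are descriptions.

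The difference between both changes was called for 13 members at 12 h, 3 higher and 10 lower with E2F1 (48.8% of all genes were called, 25% as higher and 23.8% as lower), with a median of −0.01. Rps10 was the only member called in opposite directions, with −0.53 for E2F1 (427 and 269 at 0 h, 228 and 240 at 12 h) and 0.85 for serum, a difference of −1.39 ± 0.28 (adjusted p = 0.000524). Set against the EV doxycycline change at 12 h, the E2F1 change of Rps10 differed by −0.34 and was not called (limma adjusted p = 0.331). The other members lower with E2F1 than with serum were Rpl34 (−1.16), Rpl7l1 (−1.06), Rpl22l1 (−0.88), Rpl29 (−0.84), Rpl39l (−0.62), Rps2 (−0.57), Rpl38 (−0.54), Rps19bp1 (−0.50) and Rpl30 (−0.42). Rps20 was among those higher with E2F1 than with serum (0.34). Without E2F1 0 h replicate 1, 8 were called. At 6 h the difference was called for 7 members, 1 higher and 6 lower (57.9% of all genes were called, 30.3% as higher and 27.6% as lower), which became 10 higher and 5 lower with equal totals and 34 and 6 with quantile normalization. Of all 11208 genes, 3863 were higher and 2666 lower with equal totals, and 3042 and 3252 with quantile normalization.

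**Figure D5:**
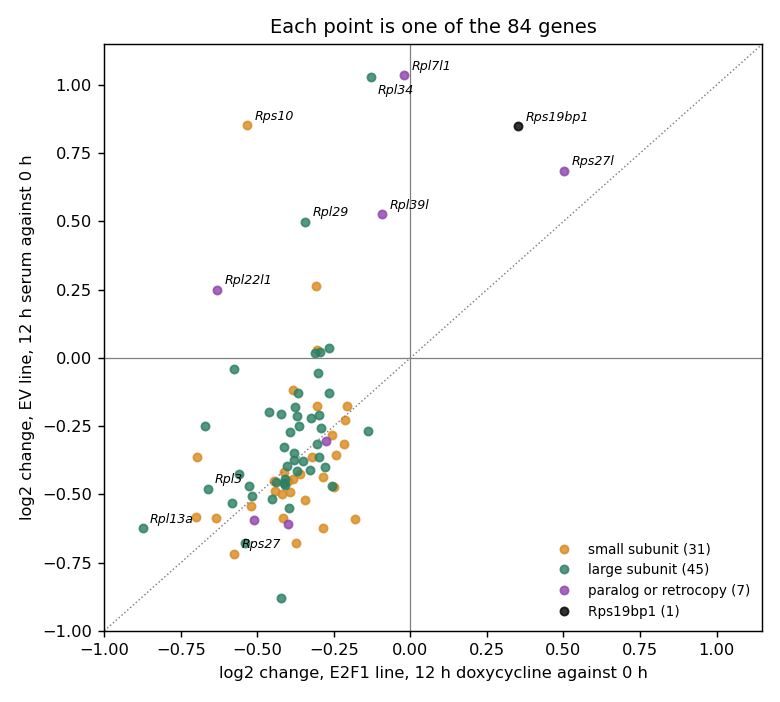
Log2 change at 12 h of E2F1 (x axis) against log2 change at 12 h of serum (y axis) for the 84 members. Most lie where both are negative, and Rps10 (−0.53 and 0.85), Rpl34 (−0.13 and 1.03) and Rpl7l1 (−0.02 and 1.04) lie apart from them.

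The lines already differed before any stimulus. Before stimulation, 15 members had lower levels in the E2F1 line, relative to the EV line, and none higher (15% of all genes were called, 6.17% as lower), with a median of −0.22. Rps3, a small-subunit protein that also repairs DNA, had 40612 and 40792 normalized counts in the E2F1 line and 57251 and 63956 in the EV line (−0.57 ± 0.10, adjusted p = 0.00126). Rpl7 (−0.52), Rps12 (−0.51), Rpsa (−0.45) and the stalk genes Rplp1 (−0.39) and Rplp2 (−0.38) were also lower. Without E2F1 0 h replicate 1 the count was 2, without E2F1 0 h replicate 2 it was 6, and without EV 0 h replicate 2 it was 1.

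Among canonical genes, the 15 with the shortest proteins, 25 to 115 residues, were all lower at 12 h of E2F1, with a median of −0.52. Rplp2, also of 115 residues, was counted with the 61 others. These others had a median of −0.36, with 51 lower. With EV doxycycline at 12 h the medians were −0.26 and −0.10, and with serum at 12 h −0.42 and −0.37. In the difference between the doxycycline changes of both lines at 12 h, the medians were −0.24 for the 15 and −0.29 for the 61, with 1 and 14 lower. Of the 19 members mutated in Diamond-Blackfan anaemia, an inherited failure of red cell production, 18 (94.7%) were lower at 12 h of E2F1 and 13 (68.4%) at 12 h of serum, where Rps10 was higher. The whole family had 81.0% and 63.1% lower in these comparisons, and all genes 29.7% in each. Members with a C and at least 4 pyrimidines at the annotated start (13 canonical genes) had medians of −0.33 with E2F1 and −0.22 with serum at 12 h, with 13 and 6 lower. The 43 canonical genes with a window but no such start had medians of −0.38 and −0.40, with 37 and 31 lower. These 43 include genes with long pyrimidine runs near the start, such as Rpl7a (21 bases) and Rpl27a (20), and genes with short ones, such as Rpl10 (4). The split rests on the exact annotated base, so it cannot tell whether the fall differed with a TOP tract.

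Rack1 and Fau encode components of the ribosome whose symbols do not match the rule. Rack1, a scaffold on the small subunit, was lower at 12 h with E2F1 (−0.48) and serum (−0.47). Fau, which encodes eS30 fused to a ubiquitin-like protein, was at −0.06 with E2F1 and fell by 0.36 with serum. Rps27a, a member that encodes eS31 fused to ubiquitin, fell with E2F1 at 12 h (−0.38, adjusted p = 0.00392).

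Other genes whose mRNAs are known for TOP tracts or for translation with the family, 24 in all, were also examined. With E2F1 at 12 h, 13 (54.2%) were lower and 1 (4.17%) higher, with a median of −0.33, while 29.7% of all genes were lower and 31.8% higher. Eef2, the translocation factor, fell by 0.80, Eef1a1, which delivers aminoacyl-tRNA, by 0.59, and the snoRNA host Gas5 by 1.01, while Nap1l1 rose by 0.49. With serum at 12 h, 9 (37.5%) were lower and 8 (33.3%) higher, near the 29.7% and 36% of all genes. Gas5 was at −1.36, Eef1a1 at −1.05 and Eef2 at −1.02, and Eif2s3x (0.83), Eef1d (0.69) and Eif3l (0.63) were higher. At 2 h of serum 7 (29.2%) were higher and 7 lower, below the 37.5% and 33.5% of all genes. These counts became 2 and 15 with equal totals, when 2611 of all 11208 genes were higher and 5907 lower.

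Genes that serve ribosomal proteins, namely their chaperones, importins and subunit exporters (16 of 17 in the table), were mostly higher with serum. At 2 h, 13 (81.3%) were higher and none lower, against 37.5% and 33.5% of all genes, with a median of 0.72. At 12 h, 13 were higher and 1 lower, against 36% and 29.7% of all genes, with a median of 1.04. Grwd1, the chaperone of RPL3, led with 2.27 at 2 h and 1.73 at 12 h, then at 2 h Heatr3 (1.44), which brings RPL5 into the nucleus, and Nmd3 (1.43), the export adaptor of the large subunit. With equal totals 9 were higher and 4 lower at 2 h, when 2611 of all 11208 genes were higher and 5907 lower. With E2F1 at 12 h, 8 (50%) were higher and 4 (25%) lower, against 31.8% and 29.7% of all genes, and those higher included Xpo1 (1.43), the exporter of both subunits, and the importin Ipo9 (1.17). Genes for termination, recycling and rescue of ribosomes (17 of 18) had 13 members higher (76.5%, against 36% of all genes) and 1 lower at 12 h of serum, with the recycling factor Abce1 at 1.40 with serum and Gtpbp2 at −1.29. At 12 h of E2F1, 7 (41.2%) were higher and 5 (29.4%) lower, against 31.8% and 29.7% of all genes.

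Of the 22 mTORC1 and LARP1 genes, 7 (31.8%) were up and 7 down at 12 h of E2F1 (6 and 9 with quantile normalization), which is close to the shares of all genes, 31.8% and 29.7%. At 12 h of serum 11 (50%) were up and 7 (31.8%) down, against 36% and 29.7% of all genes (7 and 7 with equal totals, 6 and 8 with quantile normalization). Larp1b rose in both (2.65 and 1.56), and Sesn1 and Sesn3, inhibitors of mTORC1, fell at 2 h of serum (−2.90 and −2.80). Among factors known or proposed at ribosomal protein promoters (12 of 13), 7 (58.3%) rose and 3 (25%) fell at 12 h of E2F1, against 31.8% and 29.7% of all genes. At 12 h of serum 5 (41.7%) rose and 1 (8.33%) fell, against 36% and 29.7% of all genes (5 and 4 members with quantile normalization). Myc, an activator of ribosome biogenesis, fell with E2F1 (−0.97) and rose with serum at 2 h (1.26) and 12 h (1.09). Gabpb1 (1.30) and Nrf1 (1.03) rose and Max (−0.69) fell with E2F1 at 12 h.

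By their values, the authors' deposited tables of changes hold genes whose log2 change was 2 or more in size, and 0 of the 84 members is in any of the 9. For E2F1 at 12 h the authors' deposited table holds 510 genes, and for serum at 12 h it holds 726. The largest member change measured here against 0 h was 1.44, for Rps19bp1 at 2 h of serum.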

How the data were processed

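Libraries of polyadenylated RNA, sequenced in pairs of 150 bp reads per the labels' protocols, were compared in 11 groups of 2, taken from the labels. Per the file headers, the authors deposited 1 table of normalized counts, rounded to whole numbers and treated here as a score, not as raw counts. Raw counts were not used here, so the depth behind each value is unknown and precision rests on the spread between replicates, pooled over the 11 groups. The submitters' processing notes name FastQC, Trimmomatic, HISAT2, featureCounts, DESeq2 and mm10, with no roles. How the counts were normalized, whether strand was used and how reads with several matches were treated are not given in the sources used here. The authors also deposited 9 tables of log2 fold changes and adjusted p-values per gene, which served only to look up members.

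The log2 of each value plus a pseudocount of 1 entered a linear model (limma 3.58.1, R 4.3.3) with a mean for each group, all 22 libraries, 11 residual degrees of freedom, a mean-variance trend, and Benjamini-Hochberg adjustment over all 11208 genes, with a threshold of 0.05. Fold changes are on this scale. A minimum of 10 in 2 libraries removed 0 genes. On simulated data for the 6 h serum comparison, 187 of 200 changed genes among 11208 were recovered (89 of 100 at a log2 change of 1 and 98 of 100 at 2), with 5 false calls. The simulated noise was independent between genes, and no change below a log2 of 1 was simulated. These figures therefore do not describe calls on genes that move together or change by less, as most of this family did. Gene positions and lengths came from GENCODE M21 (GRCm38), matched by identifier, and promoter windows from RefSeq (GRCm38.p6). Other steps ran in Python 3.11.15 (pandas 2.3.3, numpy 2.4.6), with plots drawn by matplotlib 3.10.9.

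Members and gene lists were chosen with earlier results of these data known. The genes named were a fixed set (Rpsa, Rps6, Rps3, Rps14, Rpl3, Rpl5, Rpl11, Rpl13a, the stalk genes, Rps27a and the paralogs) and, in each main comparison, up to 4 rises and 4 falls of largest change whose groups did not overlap. Lists gave up to 3 each way. Some genes that this rule would name are not reported here. Other names were chosen after their values were seen. As alternatives, values were scaled to equal totals (over all genes or over the genes outside the family) or quantile normalized, the pseudocount was set to 8, the filter was dropped, or trends with GC content and length were removed. Further fits blocked on the replicate number, held just the compared groups, asked for a 1.5-fold change or more, or left out each library in turn. The difference between E2F1 and serum changes was added after seeing the data.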

Additional observations from a re-analysis of the deposited data

Results flagged for a closer look

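The change with doxycycline differed between the E2F1 and EV lines, by the test of the difference itself (limma, adjusted p at most 0.05), for 1 member at 6 h and for 18 members at 12 h. Over all genes, 34.5% were called at 6 h and 50.5% at 12 h, at 12 h 27.3% as higher and 23.3% as lower. The member called at 6 h was Rps19bp1, with a difference of 0.46 on the log2 scale. At 12 h, Rps27l (0.95) and Rps19bp1 (0.48) were higher in the E2F1 line relative to the EV line. Among those lower, Rpl3 was at -0.60, Rps18 at -0.55, Rpl22 and Rpl10a at -0.50 each, Rpl10 and Rpl22l1 at -0.47 each, and Rpl13a and Rps26 at -0.43 each. The count at 12 h was 4 without E2F1 12 h replicate 1. No group had more than 2 libraries, so single libraries far from the rest of a group were not looked for.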

How the results depend on the processing

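Calls below are counts of the 84 members at an adjusted p of at most 0.05, higher and lower together, followed where needed by the median log2 change. A pseudocount of 8 and no filter moved no count by over 1.5 times and no median by over the replicate spread of 0.10. The cause was not tested for any of the changes given here, except that the 1.5-fold minimum asks for a larger change by construction.

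With quantile normalization the calls were 22 for E2F1 6 h, 76 for serum 2 h (median -0.49), 72 for serum 6 h (-0.46), 31 for the difference between lines at 12 h, 8 between lines at 0 h, and 40 for E2F1 minus serum at 6 h (0.27). Serum against doxycycline gave 61 at 2 h (-0.32), 68 at 6 h (-0.41) and a median of -0.35 at 12 h. Of all 11208 genes, quantile normalization called 6477 for E2F1 6 h, 7738 for serum 2 h and 7183 for serum 6 h. Equal totals called 6464, 8518 and 7686 of all genes in the same comparisons. With equal totals the calls were 42 for E2F1 6 h (-0.25), 74 for serum 2 h (-0.40), 71 for serum 6 h (-0.39), 2 and 31 for the difference between lines at 6 h (-0.19) and 12 h, 63 for serum against doxycycline at 6 h (-0.34, with -0.18 at 2 h), and 15 for E2F1 minus serum at 6 h. With equal totals over the other genes they were 46 for E2F1 6 h (-0.27), 75 for serum 2 h (-0.43), 72 for serum 6 h (-0.43, with -0.49 at 12 h), 2 and 32 for the difference between lines at 6 h (-0.21) and 12 h, 64 for serum against doxycycline at 6 h (-0.36, with -0.20 at 2 h and -0.34 at 12 h), and 14 for E2F1 minus serum at 6 h (0.14).

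Direction reversed for single genes with scaling. Rplp0 at E2F1 12 h came to 0.10 with quantile normalization. At serum 2 h, Rpl22l1 came to -0.0198 and -0.0534 and Rpl37rt to -0.35 and -0.38 with equal totals and equal totals over the other genes. Rpl39l came to -0.0466 and -0.0802 in the same fits and to -0.0372 with quantile normalization, as Rps27a did to -0.26.

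With only the groups compared the calls were 5 for E2F1 2 h, 12 for E2F1 6 h, 3 and 0 for EV doxycycline at 2 and 12 h, 14 for serum 6 h, 9 for the difference between lines at 12 h, 49 for serum against doxycycline at 2 h and 1 between lines at 0 h. With a minimum of 1.5-fold they were 0 and 7 for E2F1 6 and 12 h, 0 and 0 for EV doxycycline 2 and 12 h, 4, 7 and 16 for serum 2, 6 and 12 h, 0 and 2 for the difference between lines at 6 and 12 h, 5, 7 and 9 for serum against doxycycline at 2, 6 and 12 h, 0 between lines at 0 h, and 4 and 6 for E2F1 minus serum at 6 and 12 h. With GC content and length trends removed they were 8 for E2F1 6 h, 1 for EV doxycycline 12 h, 17 for serum 2 h, 2 and 48 for the difference between lines at 6 and 12 h (-0.37 at 12 h), 44 for serum against doxycycline at 6 h (with -0.41 at 12 h), 25 between lines at 0 h and 16 for E2F1 minus serum at 6 h.

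The replicate numbers share only a number: over 55 pairs of groups, the correlation of same-numbered deviations ran from -0.277 to 0.455 with a median of 0.031, and 18 were above 0.1. With the replicate number as a block the calls were 11 for E2F1 6 h, 15 for EV doxycycline 2 h, 31 for the difference between lines at 12 h, 47 for serum against doxycycline at 2 h and 27 between lines at 0 h, and no other count moved by over 1.5 times under the replicate block.

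Leaving out each library in turn gave 23 to 72 calls for E2F1 12 h (medians -0.52 to -0.24), 2 to 3 for E2F1 6 h, 0 to 7 and 0 to 5 for EV doxycycline 2 and 12 h, 6 to 12 for serum 2 h (-0.13 to 0.0691), 16 to 36 for serum 6 h (-0.29 to -0.0826) and 43 to 64 for serum 12 h (-0.48 to -0.29). It gave 0 to 1 and 4 to 34 for the difference between lines at 6 and 12 h (-0.39 to -0.14 at 12 h), 14 to 25, 16 to 25 and 28 to 52 for serum against doxycycline at 2, 6 and 12 h (-0.34 to -0.12 at 12 h), 1 to 15 between lines at 0 h, and 5 to 8 and 8 to 17 for E2F1 minus serum at 6 and 12 h (-0.0579 to 0.15 and -0.15 to 0.12).

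Of the values of single genes under other settings, 1245 kept their side of the threshold, 84 fell below it, 156 passed it and 9 reversed. The depth is unknown, so no counting error can be given for any value.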
